A study of Mus musculus with 6 samples.

Results

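The MHC class II genes were followed across 6 RNA-seq libraries of mouse splenic CD8 T cells. The set holds the 10 genes H2-Aa, H2-Ab1, H2-Eb1, H2-DMa, H2-DMb1, H2-DMb2, H2-Oa, H2-Ob, Cd74 and Ciita, taken by name from a table of 17744 genes. The cells were sorted as positive for CD45, CD3 and CD8a, and the design text asks for more than 90% positive cells. The 3 control libraries carry the genotype label wt and the treatment label control. The 3 libraries labelled fus, here called ultrasound libraries, carry the label fus irradiation for both genotype and treatment. The series title speaks of noninvasive focused ultrasound, which directs sound energy to a chosen spot in the body, and of spleen function. Strain, age, sex, dose, interval after treatment and batch are not given in the sources used here, nor is whether each library comes from 1 animal. P-values therefore measure the spread between these libraries only.

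MHC class II molecules are pairs of an alpha and a beta chain that show peptides from endocytosed proteins to CD4 T cells. B cells, dendritic cells and some macrophages carry them, whereas resting mouse T cells are known to make little. The invariant chain, encoded by Cd74, fills the groove of a new molecule and guides it to endosomes. There H2-DM helps to exchange the remnant of the invariant chain for peptide, and H2-DO restrains H2-DM, mainly in B cells. Ciita encodes a coactivator that binds no DNA itself. It joins a complex of RFX, CREB and NF-Y factors on promoter elements called the X and Y boxes, and class II transcription depends on it.

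All but a pair of the genes lie within the H2 complex of chromosome 17. In the RefSeq annotation of GRCm38.p6, which corresponds to the mm10 build named in the submitters' processing notes, they run from H2-Oa (chr17:34092379-34095234) to H2-Eb1 (chr17:34305867-34316674). Cd74 and Ciita lie elsewhere, the latter at chr16:10480014-10531064. Promoter sequences from 250 bases before to 50 bases after a start site were found in RefSeq for 7 of the 10 genes: H2-Oa, H2-DMa, H2-DMb2, H2-DMb1, H2-Ob, H2-Aa and H2-Eb1. H2-Ab1, Cd74 and Ciita were not matched. The windows below run from 130 to 21 bases before the start site and are shown because the genes share the elements that Ciita acts through. Capitals mark GATTGG, the core of the Y box, on either strand, and AACNNATGATG, a string of the X box region made of the bases that 4 of these promoters share. Both strings were chosen after the sequences were read, so these 4 matches were built in.
H2-Eb1: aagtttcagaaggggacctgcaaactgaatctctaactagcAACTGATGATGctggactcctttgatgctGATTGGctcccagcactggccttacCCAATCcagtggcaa
H2-DMb1: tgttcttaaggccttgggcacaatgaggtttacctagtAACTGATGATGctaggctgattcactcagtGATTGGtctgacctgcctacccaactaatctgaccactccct
H2-DMb2: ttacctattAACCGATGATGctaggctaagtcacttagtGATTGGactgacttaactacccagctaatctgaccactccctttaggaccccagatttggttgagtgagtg
H2-Ob: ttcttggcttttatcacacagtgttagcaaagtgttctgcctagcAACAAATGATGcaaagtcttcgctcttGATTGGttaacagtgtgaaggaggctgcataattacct
H2-Oa: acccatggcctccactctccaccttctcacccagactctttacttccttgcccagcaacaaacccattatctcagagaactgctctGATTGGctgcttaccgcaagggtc
H2-Aa: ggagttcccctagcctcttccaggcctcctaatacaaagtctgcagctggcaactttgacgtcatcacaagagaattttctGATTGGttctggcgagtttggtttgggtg

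These windows are chr17:34305737-34305846 for H2-Eb1, chr17:34153061-34153170 for H2-DMb1, chr17:34145119-34145228 for H2-DMb2, chr17:34238775-34238884 for H2-Ob, chr17:34092249-34092358 for H2-Oa and, on the minus strand, chr17:34287844-34287953 for H2-Aa. The others are on the plus strand. AACNNATGATG lay in 4 promoters, those of H2-Eb1, H2-DMb1, H2-DMb2 and H2-Ob, and its start stood 29, 30, 30 and 27 bases before that of GATTGG. Over all 32851 promoters of the table, searched on both strands, AACNNATGATG was found in 0.137%, GATTGG in 16.1% and both in 0.0335%. In H2-Oa and H2-Aa only GATTGG matched, at positions -44 and -49 from the start site. AACNNATGATG was built from the 4 other promoters, so a miss does not show that an X box is absent. H2-DMa has 2 windows in the table, neither with AACNNATGATG, and 1 holds GATTGG at position -199. These are matches of letters, not measured binding.

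The libraries held 35024080 to 38113103 reads, recovered as whole numbers from the deposited values. Those of the class II genes ranged from 802 to 159852 per gene and library, so counting error is small beside the differences between libraries. T cell markers were present throughout, with Cd8a, the CD8 alpha chain, at 251 to 314 FPKM (fragments scaled to gene length and library size) and Cd3e, a T cell receptor subunit, at 165 to 310. The ultrasound libraries were not alike. Mitochondrial genes took 2.19% of reads in ultrasound 1 and 2.05% to 2.70% in controls, against 0.954% and 0.937% in ultrasound 2 and 3. The chi-square per degree of freedom between libraries was 24.3 for ultrasound 2 against 3 and 147 or more for either against ultrasound 1. Results are therefore given with and without ultrasound 1.

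Transcripts of all 10 genes were present in every library, and their sum did not separate the groups. Together they took 0.493%, 0.247% and 0.252% of reads in control 1, 2 and 3, and 0.254%, 0.844% and 0.763% in ultrasound 1, 2 and 3. Ultrasound 1 thus lay beside control 2 and 3, control 1 lay above them, and ultrasound 2 and 3 lay highest. In bulk RNA, a different number of class II cells and a different amount of class II RNA per cell cannot be told apart.

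**Figure D1:**
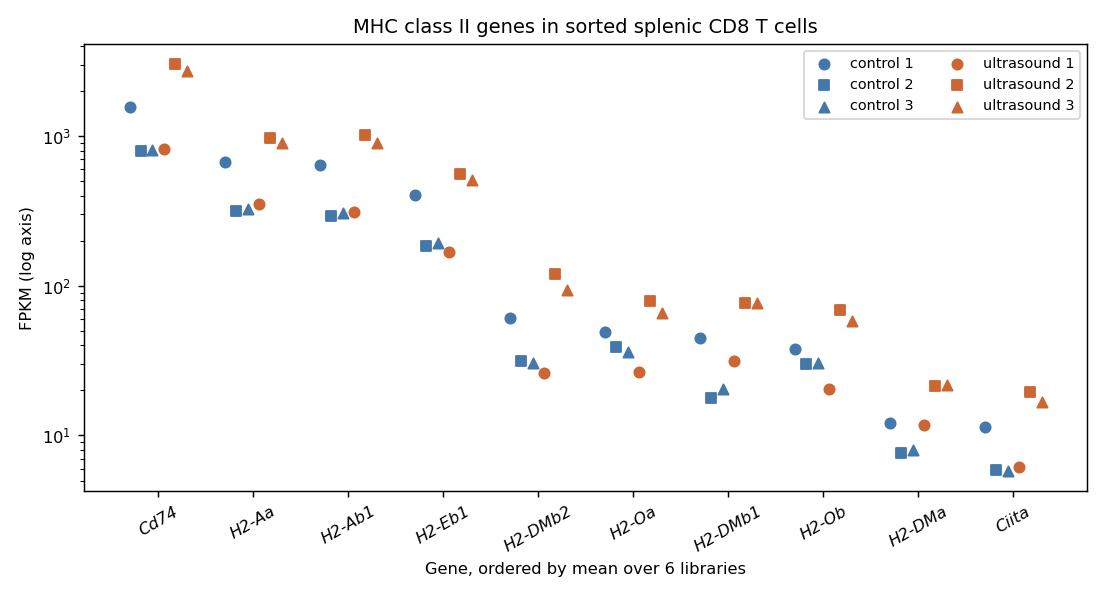
FPKM of each MHC class II gene (log axis) in each library, with controls in blue, ultrasound libraries in orange and marker shape giving the replicate number. For every gene ultrasound 2 and 3 are the highest points, control 1 comes next, and the groups overlap because ultrasound 1 lies below control 1.

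The classical chains form the peptide-binding molecules at the cell surface, I-A from H2-Aa and H2-Ab1 and the beta chain of I-E from H2-Eb1. H2-Aa had 673, 316 and 327 FPKM in control 1, 2 and 3 and 349, 966 and 893 in ultrasound 1, 2 and 3. H2-Ab1 had 637, 294 and 304 FPKM in the controls and 310, 1014 and 902 in the ultrasound libraries. H2-Eb1 had 404, 185 and 192 FPKM in the controls and 169, 560 and 508 in the ultrasound libraries. For all 3 genes ultrasound 2 and 3 exceeded every control, while ultrasound 1 was under control 1 and, for H2-Eb1, under every control. The log2 change of H2-Ab1 on the log2(FPKM + 1) scale, used for all changes here, was 0.77 with standard error 0.51 (95% interval -0.43 to 1.98, limma adjusted p 0.317). H2-Aa and H2-Eb1 had log2 changes of 0.70 and 0.58, with limma adjusted p of 0.313 and 0.451. H2-Eb2, a further beta chain gene of the same region, had 3.27 to 6.37 FPKM in controls and 2.32, 9.20 and 6.98 in ultrasound 1, 2 and 3 (limma adjusted p 0.668). H2-Ea, the I-E alpha chain locus, was not analysed here.

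Cd74 was the most abundant of the set in every library, and it is also a partner of the cytokine MIF at the cell surface. It had 1563, 796 and 805 FPKM in control 1, 2 and 3 and 824, 3013 and 2731 in ultrasound 1, 2 and 3. Its order of libraries was that of H2-Aa and H2-Ab1. The group means were 1055 ± 440 and 2189 ± 1191 FPKM (SD, n = 3 each), and the log2 change of 0.92 had a standard error of 0.53 and a limma adjusted p of 0.262.

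The H2-DM genes encode the peptide editor, with H2-DMa for its alpha chain and H2-DMb1 and H2-DMb2 for alternative beta chains. H2-DMb1 had 44.5, 17.8 and 20.5 FPKM in control 1, 2 and 3 and 31.6, 76.9 and 77.2 in ultrasound 1, 2 and 3. H2-DMb2 had 61.01, 31.3 and 30.5 FPKM in the controls and 26.2, 120 and 94.0 in the ultrasound libraries. Ultrasound 1 thus stood above control 2 and 3 for H2-DMb1 but under every control for H2-DMb2. H2-DMb1 had the largest log2 change of the 10 genes, 1.14 with standard error 0.45 (limma adjusted p 0.142), and that of H2-DMb2 was 0.77 (limma adjusted p 0.370). The transcripts of these neighbours are 94.4% identical over aligned bases, and 13.7% of the 100-base windows of H2-DMb1 occur unchanged in H2-DMb2. How shared reads were assigned is not given in the sources used here, so the split between the pair is uncertain.

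H2-DMa had 12.04, 7.63 and 8.03 FPKM in control 1, 2 and 3 and 11.7, 21.4 and 21.8 in ultrasound 1, 2 and 3. Ultrasound 1 lay between control 1 and the other controls, as for H2-DMb1, and here close to control 1. Its log2 change was 0.89 with standard error 0.27 (95% interval 0.25 to 1.53), and its limma adjusted p of 0.0858 was the smallest of the set. Its level per length cannot be set beside the others: the deposited values imply a gene length of 8326 bases, against 1284 for H2-DMb1. The gene also overlaps Brd2 (chr17:34112019-34122814), a chromatin reader on the opposite strand, with 88.7 to 120 FPKM. Without strand, reads of the overlap cannot be told apart, and strand in the counting is not given in the sources used here. Brd2 itself had 100 to 120 FPKM in controls and 88.7 to 92.2 in ultrasound libraries, lower in all 3 than in any control.

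H2-Oa and H2-Ob encode the alpha and beta chains of H2-DO. H2-Oa had 48.8, 38.8 and 36.4 FPKM in control 1, 2 and 3 and 26.6, 78.9 and 65.6 in ultrasound 1, 2 and 3. H2-Ob had 37.7, 30.05 and 30.4 FPKM in the controls and 20.4, 68.7 and 58.5 in the ultrasound libraries. Ultrasound 1 was lowest of all libraries for both. The H2-DO genes also had the narrowest control values: control 1 exceeded the mean of control 2 and 3 by 1.30-fold for H2-Oa and 1.25-fold for H2-Ob, against 1.54-fold to 2.32-fold for the other 8 genes. Their log2 changes were the smallest of the set, 0.33 and 0.41, with limma adjusted p of 0.564 and 0.515. H2-Oa overlaps BC051537, a transcript on the opposite strand, which carries the same limit as Brd2 for H2-DMa.

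Ciita, the coactivator, had 11.4, 5.88 and 5.79 FPKM in control 1, 2 and 3 and 6.17, 19.4 and 16.8 in ultrasound 1, 2 and 3. As for H2-Aa and H2-Ab1, ultrasound 2 and 3 were highest, control 1 came next and ultrasound 1 lay just above control 2 and 3. The log2 change was 0.72 with standard error 0.43 (limma adjusted p 0.278).

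In the comparison of all ultrasound with all control libraries, 0 of the 10 genes passed an adjusted p of 0.05 by limma, where 6.55% of 10655 tested genes passed as higher and 1.56% as lower. All 10 entered that test. At an unadjusted p under 0.05 there were 2 of them, H2-DMa and H2-DMb1, against 31.2% of all genes, and voom on recovered reads also called 0. All 10 changes were above 0, with a median of 0.75 against 0.09 over all tested genes, and the ratio of group means in FPKM ran from 1.38 to 2.24. With median-of-ratios factors the median of all genes shifted by -0.11 to -0.02, that of the class II genes became 0.63, and genes called went from 698 higher and 166 lower to 281 and 187. For 0 of the 10 genes did every ultrasound library exceed every control, as 25.9% of tested genes did, or lie below every control, as 8.96% did. In the authors' deposited table H2-DMa has a q of 0.0327 and a log2 fold change of 0.86, and the other 9 genes have q of 0.0970 to 0.594. There, 7.3% of listed genes have q under 0.05 and are higher.

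Without ultrasound 1, all 10 genes passed as higher by limma, where 33.8% of 10497 genes did and 19.9% passed as lower. The changes then ran from 0.80 for H2-Oa (standard error 0.14, limma adjusted p 0.00509) to 1.56 for H2-DMb1 (0.39, limma adjusted p 0.0215), with a median of 1.18 against 0.11 for all tested genes. H2-Ob had the smallest adjusted p, 0.00115 by limma, and Cd74 changed by 1.52 with 0.0125. Ultrasound 1 was set aside after its values were seen, and this comparison rests on 2 ultrasound libraries.

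Ultrasound 1 alone against the 3 controls gave the opposite sign for 8 of the 10 genes. The changes were -0.65 for H2-Ob, -0.61 for H2-Oa, -0.55 for H2-DMb2 and -0.53 for H2-Eb1, and 0.33 and 0.30 for H2-DMa and H2-DMb1. Again 0 of 10 passed by limma, with 2 at an unadjusted p under 0.05 and adjusted p from 0.0992 to 0.855, where 0.68% of 10288 genes passed in either direction. This fit takes the lone library to vary as the controls do. Read by rank, ultrasound 1 lay below control 1 for 10 of 10 genes, against 36.6% of tested genes, and below all controls for 4, against 23.1%. Ultrasound 2 and 3 both lay above all controls for 10 of 10, against 45.9%. Control 1 was the highest control for 10 of 10, against 36.0%.

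**Figure D2:**
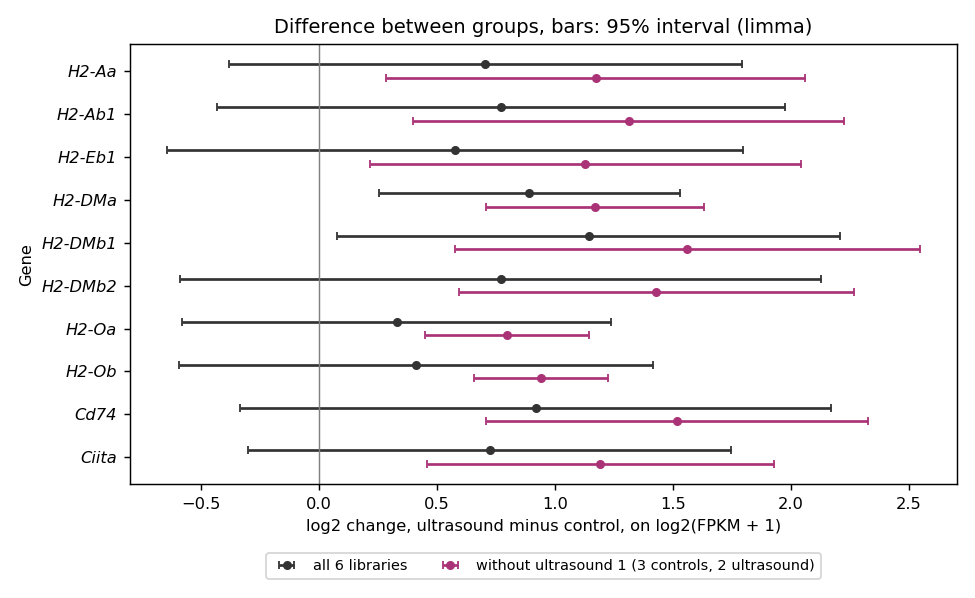
Log2 change of each gene on the log2(FPKM + 1) scale (x axis) with its 95% interval from limma, for all 6 libraries in black and without ultrasound 1 in purple. In black only the intervals of H2-DMa and H2-DMb1 lie above 0; in purple all 10 do.

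The levels kept a stable order at the top. Mean FPKM over the 6 libraries was 1622 for Cd74, 587 for H2-Aa, 577 for H2-Ab1 and 336 for H2-Eb1, followed by 60.5 for H2-DMb2, 49.2 for H2-Oa, 44.7 for H2-DMb1 and 40.9 for H2-Ob. Cd74 exceeded H2-Aa, and H2-Ab1 exceeded H2-Eb1, in 6 of 6 libraries. H2-Aa and H2-Ab1 were in that order in 4 of 6, and the H2-DMb and H2-DO genes changed places between libraries. The lowest H2-Eb1 value, 169, lay above the highest H2-DMb2 value, 120, the only neighbours whose ranges did not overlap.

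Ratios within a library are free of the scaling between libraries and show how the genes moved among themselves. The I-A chains stayed close: the ratio of H2-Aa to H2-Ab1 was 1.06 to 1.08 in controls and 1.13, 0.953 and 0.990 in ultrasound 1, 2 and 3. That of Ciita to H2-Ab1 spanned 0.0179 to 0.0200 over all libraries, a 1.12-fold range. Cd74 to H2-Ab1 ran from 2.45 to 2.71 in controls and from 2.66 to 3.03 in ultrasound libraries.

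The ratio of H2-Eb1 to H2-Ab1 was 0.630 to 0.635 in controls and 0.544 to 0.563 in ultrasound libraries, lower in all 3. The ratio of H2-DMb1 to H2-Ab1 was 0.0607 to 0.0699 in controls and 0.102, 0.0758 and 0.0855 in ultrasound 1, 2 and 3, higher in all 3. Of the 9 ratios to H2-Ab1, these 2 did not overlap between groups, where 2.78% of 10654 tested genes have such a ratio. H2-Ab1 itself overlapped between groups, which makes such a ratio less likely for genes that do not follow it. The share is thus not an even base for class II genes, and no excess is read from it. With 3 libraries a group, an exact permutation test of a ratio cannot go below p = 0.10, so no test is given.

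The H2-DO genes followed each other, with a ratio of H2-Oa to H2-Ob of 1.20 to 1.29 in controls and 1.12 to 1.30 in ultrasound libraries, but not the I-A chains. H2-Ob to H2-Ab1 was 0.102 and 0.1002 in control 2 and 3, and 0.0592 in control 1, beside 0.0657, 0.0677 and 0.0648 in ultrasound 1, 2 and 3. Control 1 thus differed from the other controls in the mix of class II transcripts as well as in their sum. H2-Oa to H2-DMb1, the restrainer of H2-DM over 1 of its chains, was 1.10 to 2.18 in controls and 0.840 to 1.03 in ultrasound libraries. H2-Ob to H2-DMb1 overlapped between groups, at 0.846 to 1.68 and 0.644 to 0.894. The share of all genes with a separate ratio to H2-DMb1 was not counted. Every ratio with H2-DMb1, also that to H2-Ab1, rests on the uncertain split of reads from H2-DMb2. H2-DMb2 to H2-DMb1 was 1.37 to 1.75 in controls, 1.56 and 1.22 in ultrasound 2 and 3, and 0.828 in ultrasound 1, the only library with more H2-DMb1 than H2-DMb2.

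**Figure D3:**
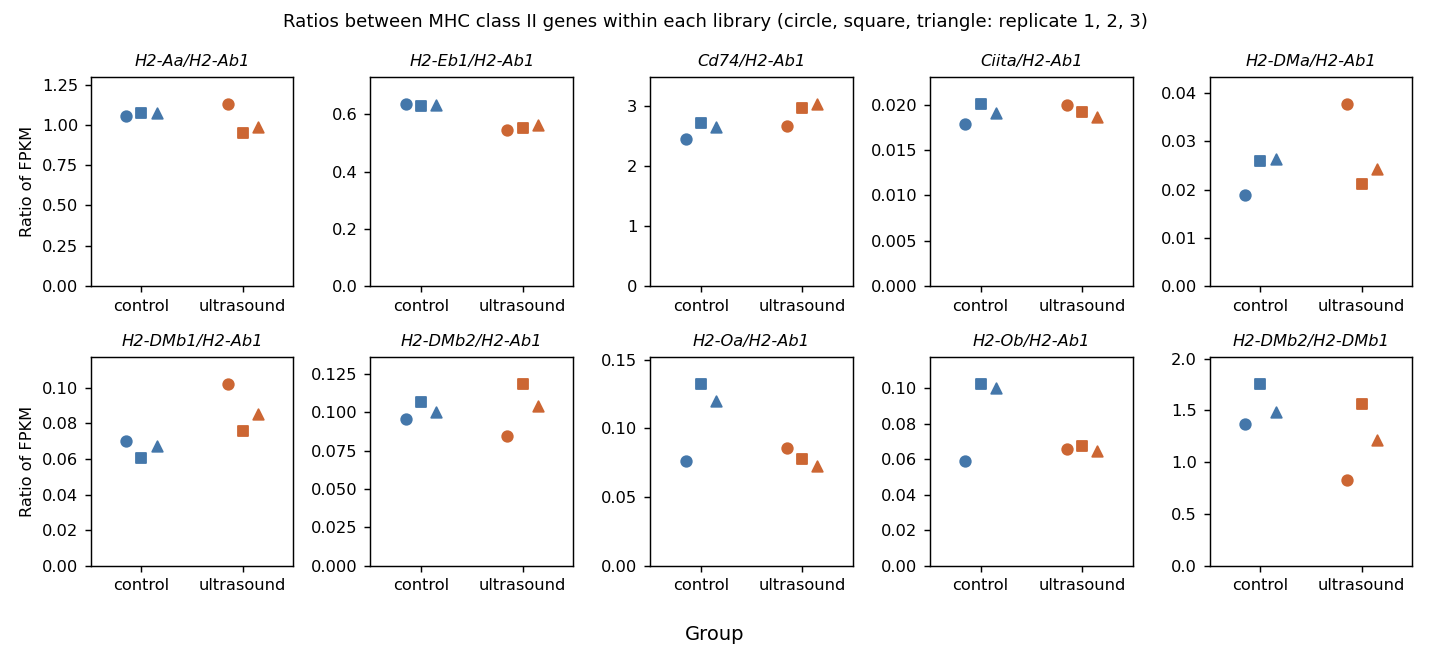
Ratio of FPKM between pairs of class II genes within each library (y axis from 0), by group, with replicate 1, 2 and 3 as circle, square and triangle. H2-Eb1/H2-Ab1 and H2-DMb1/H2-Ab1 separate the groups, and H2-DMb2/H2-DMb1 is lowest in ultrasound 1.

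Genes of antigen processing prepare the peptides and trim the invariant chain. Of 12 fixed genes 11 were tested, and 5 rose and 0 fell by limma at an adjusted p of 0.05, with a median log2 change of 0.94 against 0.09 over all genes. Over all tested genes, 6.55% passed as higher and 1.56% as lower. Cst3, an inhibitor of cysteine cathepsins, rose by 1.56 (standard error 0.34, limma adjusted p 0.0440), from 99.3 to 196 FPKM in controls to 248, 435 and 490 in ultrasound 1, 2 and 3. Lgmn, an endosomal asparaginyl protease, rose by 1.22, Ctsz by 1.11, Ctsb by 0.94 and Ctsd by 0.54, with limma adjusted p of 0.0331 to 0.0465; the last 3 encode lysosomal cathepsins. Cst3, Lgmn, Ctsz, Ctsb and Ctsd were above every control in ultrasound 1 as well. Of the 11 tested, 6 exceeded every control in all 3 ultrasound libraries, as 25.9% of tested genes did. With median-of-ratios or upper-quartile factors 0 of the 11 passed, and 0 without control 2, control 3, ultrasound 2 or ultrasound 3. Without control 1 there were 8 higher, and without ultrasound 1 there were 6 higher and 1 lower, Ctsl, beside the 33.8% and 19.9% of all genes.

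Ctss, the cathepsin that makes the last cuts in the invariant chain, had 174 to 303 FPKM in controls and 380, 300 and 373 in ultrasound 1, 2 and 3 (limma adjusted p 0.0968). Ifi30, a thiol reductase that unfolds antigens, had 67.4 to 165 FPKM in controls and 183, 192 and 265 in ultrasound 1, 2 and 3 (limma adjusted p 0.0847). Ctsl, a related cathepsin, had 8.03 to 9.08 FPKM in controls, 15.6 in ultrasound 1 and 5.27 and 6.40 in ultrasound 2 and 3. In ultrasound 1 alone against the controls Ctsl had a log2 change of 0.80. Marchf1, a ubiquitin ligase that takes class II molecules off the surface, had a log2 change of 0.54 (limma adjusted p 0.123).

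The promoter complex is what brings Ciita to the class II genes. Tested here were 12 genes, its factors and coactivators together with Nlrc5, the counterpart of Ciita for MHC class I genes. Of these, 0 passed in either direction by limma, where 6.55% of all tested genes passed as higher and 1.56% as lower. At an unadjusted p under 0.05 there was 1, Nlrc5. Their adjusted p ran from 0.0759 to 0.725 and their median log2 change was -0.07, and voom also called 0. Rfx5, the DNA-binding RFX subunit, had 4.21 to 4.77 FPKM in controls and 3.90, 5.91 and 5.01 in ultrasound 1, 2 and 3. Nlrc5 had 71.7 to 79.8 FPKM in controls and 65.2, 53.4 and 54.7 in ultrasound 1, 2 and 3, lower in all 3 (log2 change -0.37, limma adjusted p 0.0759). Without ultrasound 1, 4 of the 12 passed as higher and 4 as lower, where 33.8% and 19.9% of all tested genes did.

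Among 16 regulators of Ciita, 1 rose and 2 fell by limma, where 6.55% of all tested genes passed as higher and 1.56% as lower. Spi1, the myeloid and B cell factor PU.1, rose by 2.05 (standard error 0.37, limma adjusted p 0.0312), from 13.9 to 35.0 FPKM in controls to 66.1, 78.4 and 116 in ultrasound 1, 2 and 3. Irf1, which acts on the Ciita promoter used under interferon-gamma, fell by 0.67 on the log2 scale (limma adjusted p 0.0304), from 192 to 194 FPKM in controls to 130, 107 and 126 in ultrasound 1, 2 and 3. Irf4, a lymphocyte factor induced by antigen receptor signals, fell by 0.70 on the log2 scale (limma adjusted p 0.0304), from 22.8 to 27.3 FPKM to 16.5, 14.3 and 14.7. Both were below every control in all 3 ultrasound libraries, unlike any class II gene. Without control 2, control 3, ultrasound 2 or ultrasound 3, 0 of the 16 passed, and without ultrasound 1 there were 8 higher and 4 lower, where 33.8% and 19.9% of all tested genes passed.

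Socs1, a brake on interferon signalling, had 38.2 to 45.0 FPKM in controls and 30.3, 13.8 and 16.8 in ultrasound 1, 2 and 3 (log2 change -1.06, limma adjusted p 0.0575). Irf8, Pax5 and Spib, factors of B cells and in part of dendritic cells, had ultrasound 2 and 3 highest and control 1 next, as the class II genes did. Spib had 16.3, 10.2 and 10.7 FPKM in control 1, 2 and 3 and 6.30, 43.5 and 36.6 in ultrasound 1, 2 and 3 (limma adjusted p 0.412).

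Of the cells that carry class II molecules, B cells and dendritic cells had summed marker levels highest in ultrasound 2 and 3, while those of macrophages and monocytes were high in ultrasound 1 too. The 14 listed B cell markers summed to 322 to 485 FPKM in controls and to 242, 1133 and 982 in ultrasound 1, 2 and 3. All 13 that were tested lay above every control in ultrasound 2 and 3, as 45.9% of tested genes did. All 13 lay below every control in ultrasound 1, as 23.1% of tested genes did. With all 6 libraries, 0 of the 13 passed by limma, adjusted or unadjusted, or by voom, with a median log2 change of 0.79. Without ultrasound 1 all 13 passed as higher, as the 10 class II genes did and 33.8% of all tested genes. Cd79a, a B cell receptor subunit, had 78.3 to 126 FPKM in controls and 65.2, 339 and 299 in ultrasound libraries, and Ms4a1, which encodes CD20, 23.3 to 37.5 and 14.3, 55.6 and 42.3.

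The 12 dendritic cell markers summed to 42.6 to 74.5 FPKM in controls and to 46.1, 127 and 116 in ultrasound 1, 2 and 3. Itgax alone held 14.9 to 31.0 FPKM of the control sums and 19.9, 49.4 and 45.0 of the ultrasound sums. Of 7 tested, 1 passed as higher by limma, Clec10a, against 5 without ultrasound 1 and 0 without control 2, control 3, ultrasound 2 or ultrasound 3. Over all tested genes, 6.55% passed as higher, and 33.8% did without ultrasound 1. Flt3, a receptor of dendritic cell precursors, had 1.28 to 3.27 FPKM in controls and 0.853, 5.05 and 5.13 in ultrasound 1, 2 and 3. Xcr1, a receptor of cross-presenting dendritic cells, was too low to be tested, at 0.0962 to 0.305 and 0.121, 1.95 and 1.48. Of the 7 tested, 6 lay above every control in ultrasound 2, 6 in ultrasound 3 and 1 in ultrasound 1. Ccr9 (log2 change -0.24) had 9.798 to 10.36 FPKM in controls and 5.62, 10.41 and 10.05 in ultrasound 1, 2 and 3. Clec10a had 0.944 to 1.28 and 2.61, 5.31 and 6.14, above every control in ultrasound 1 too. Batf3 was below control 1 (6.84 FPKM) in ultrasound 1 and 2, at 5.55 and 6.82. The 14 macrophage and monocyte markers summed to 820 to 1222 FPKM in controls and to 2385, 2584 and 3978 in ultrasound libraries. The lysozyme gene Lyz2 alone held 1430, 1513 and 2721 FPKM of the ultrasound sums. In ultrasound 1, 13 of the 14 markers lay above every control and 1, Ly6c2, below every control. The share of all tested genes above every control in ultrasound 1 was not counted. For 11 of the 14, all 3 ultrasound libraries exceeded every control, as 25.9% of tested genes did. By limma 7 of the 14 passed as higher. Without ultrasound 1 there were 10, and without control 2, control 3, ultrasound 2 or ultrasound 3 there were 0. Csf1r, the receptor for the growth factor of macrophages, had 30.5 to 65.9 FPKM in controls and 102, 135 and 200 in ultrasound 1, 2 and 3. No marker of the 3 lists was at 0 in every library. The 9 T cell markers summed to 2220 to 2350 FPKM in controls and to 1904, 2482 and 2270, and 0 passed by limma, adjusted or unadjusted, or by voom, against 2 higher without ultrasound 1. The part of each cell type in the class II result was not tested.

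**Figure D4:**
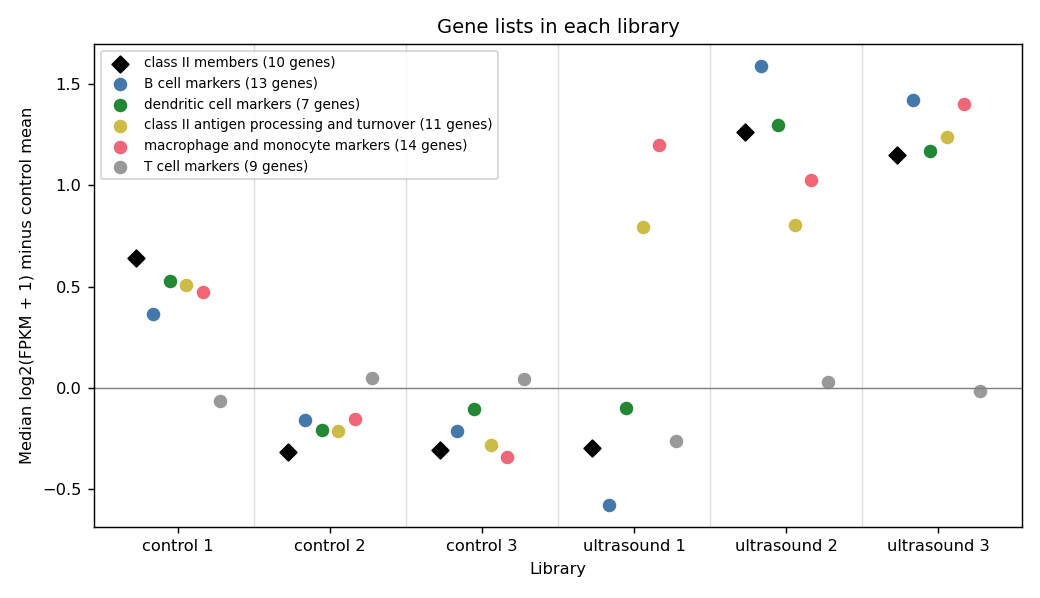
Median log2(FPKM + 1) of each gene list minus the control mean (y axis) in each library, over the number of genes in the legend. Class II genes lie at -0.29 in ultrasound 1, where B cell markers lie at -0.58, processing genes at 0.80 and macrophage markers at 1.20, while all 4 lie at 0.80 or higher in ultrasound 2 and 3.

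Set against a B cell gene, the class II genes differed from each other. H2-Ab1 to Cd79a was 5.05, 3.75 and 3.80 in control 1, 2 and 3 and 4.76, 2.99 and 3.02 in ultrasound 1, 2 and 3. H2-DMb1 to Cd79a was 0.228 to 0.353 in controls, 0.227 and 0.258 in ultrasound 2 and 3, and 0.485 in ultrasound 1. H2-Ob to Cd79a was 0.299 to 0.384 in controls, 0.312 in ultrasound 1 and 0.203 and 0.196 in ultrasound 2 and 3. Relative to Cd79a, then, control 1 held the most H2-Ab1, ultrasound 1 the most H2-DMb1, and ultrasound 2 and 3 the least H2-Ab1 and H2-Ob. Against Lyz2, a lysozyme of macrophages, monocytes and neutrophils whose reads are shared with a close copy, H2-Ab1 was 1.28 to 1.47 in controls and 0.217, 0.671 and 0.331 in ultrasound 1, 2 and 3, lower in all 3.

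As a description of likeness, each gene's log2(FPKM + 1) was correlated with the mean of the set over the 6 libraries, which fall into clusters and share their depth scaling. Against the mean of the other 9, Cd74 and Ciita had r of 0.999 and H2-DMa, H2-Ob, H2-Oa and H2-DMb1 the lowest values, from 0.918 to 0.943. The 10 genes outside the set most like its mean were Kynu, Mylpf, Scd1, Mycl, Dnase1l3, Tspan33, Cisd1, Wdfy4, Cox6b1 and Cd40, with r from 0.992 to 0.996. Of these, Wdfy4 is also among the dendritic cell markers. Such an r takes no account of the size of a change. The log2 changes of the 10 ran from 0.14 for Mylpf to 0.93 for Cd40. Cd40, the receptor through which T cells license antigen-presenting cells, had 7.35, 3.76 and 3.52 FPKM in control 1, 2 and 3 and 4.39, 14.96 and 13.4 in ultrasound 1, 2 and 3. Dnase1l3, a secreted nuclease, had 11.8, 4.68 and 4.80 FPKM in the controls and 4.61, 22.3 and 15.9 in the ultrasound libraries. Neither passed by limma (adjusted p 0.201 and 0.351).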

How the data were processed

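RNA-seq of 6 sorted CD8 T cell libraries was deposited as a table of 17744 genes. Per the file headers it holds FPKM per library, which the authors scaled by gene length and library size. Per the file headers, the authors also gave a signal for each group, its mean of DESeq2 normalized counts. The authors' deposited ratio divides the ultrasound mean by the control mean, and a further deposited column holds that fold on the log2 scale. The p-value and q-value columns come from the same comparison by the authors. The authors used HISAT2, HTSeq, DESeq2, R 3.2.0 and mm10 per the submitters' processing notes, which give them no role. A filtered copy of the table was not used here. Groups and replicate numbers come from the sample titles.

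Values of log2(FPKM + 1) were tested two-sided in R 4.3.3 by limma 3.58.1, with its trend and robust options, over 10655 genes with FPKM of at least 1 in at least 3 libraries, with Benjamini-Hochberg adjustment over all of them and a threshold of 0.05. Fold changes on this scale understate those of low genes. Whole reads were recovered from the FPKM and group mean columns: 100% of 64001 values under 1000 reads lay within 0.05 of a whole number. They served depth, gene lengths and voom; no molecular identifiers are given, so counting error is the only error they cover. In simulated data of this comparison with 2-fold changes, limma recovered 100% of 195 changed genes at a dispersion of 0.01 (18 false calls over 10448 genes) and 59.3% of 194 at 0.05 (4 over 10444). The simulation held no outlying library. Class II genes such as H2-Ab1 varied more, with 411 ± 195 FPKM in controls and 742 ± 378 in ultrasound libraries (SD). The recovered shares therefore do not apply to them. The table pairs symbols with NCBI Gene numbers, and all 10 matched RefSeq. Promoters are from RefSeq on GRCm38.p6, transcripts from GENCODE. Python 3.11.15, numpy 2.4.6, pandas 2.3.3, matplotlib 3.10.9 and Biopython 1.88 were used.

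The genes and lists were chosen with earlier results of these data known. Named genes are the 10 class II genes, list genes that passed, list members where a value was needed, fixed markers and the 10 most alike genes; a pair of list genes is not reported here. Irf8, Pax5, Spib, Lyz2, Brd2, Clec10a, Ccr9, Batf3, Itgax, Ly6c2 and the pairs set in ratios were named after their values were seen. Other settings tried were scaling, pseudocount, filters, the robust option, a replicate block, voom, thresholds, each library left out and the authors' values.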

Additional observations from a re-analysis of the deposited data

How the results depend on the processing

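Of 180 results for single class II genes over 18 alternatives, 160 kept their direction and stayed short of the threshold. Changes of filter, robust option, replicate block or threshold leave each log2 change at its main value, so direction was fixed there. A gene short of 0.05 also cannot pass 0.01. The 160 are therefore not all separate checks. The 8 reversals came with ultrasound 1 alone against the controls, an alternative added after the data were seen: H2-Aa -0.23, H2-Ab1 -0.31, H2-Eb1 -0.53, H2-DMb2 -0.55, H2-Oa -0.61, H2-Ob -0.65, Cd74 -0.28 and Ciita -0.22; the cause was not tested. H2-DMa passed with an adjusted p under 0.1 (log2 change 0.89, limma adjusted p 0.0858) and in the authors' deposited table (0.86, q 0.0327), so 1 class II gene passed in each. Leaving out 1 library gave 0 to 10 class II genes, with log2 changes of 0.44 to 1.17 for H2-Aa, 0.46 to 1.31 for H2-Ab1, 0.27 to 1.13 for H2-Eb1, 0.75 to 1.17 for H2-DMa, 0.90 to 1.56 for H2-DMb1, 0.35 to 1.43 for H2-DMb2, 0.029 to 0.80 for H2-Oa, 0.088 to 0.94 for H2-Ob, 0.58 to 1.52 for Cd74 and 0.44 to 1.19 for Ciita.

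The main counts were 864 genes, 8 pathway genes and 8 marker genes. Leaving out 1 library gave 0 to 5628 genes, 0 to 27 pathway genes and 0 to 30 marker genes: 5628 without ultrasound 1, 571 without control 1 and 0 without any other, where limma gave 1913 to 2137 genes at an unadjusted p under 0.05. Median-of-ratios factors gave 468 genes, 3 pathway and 5 marker genes, and upper-quartile factors 3 pathway genes. With no filter all 3 counts were 0 (4216 genes at an unadjusted p under 0.05), and at an adjusted p under 0.01 also 0 (3321). Ultrasound 1 alone gave 70, 1 and 1; the deposited q values of the authors gave 2179, 15 and 14; an adjusted p under 0.1 1962, 15 and 13. Pairing by replicate number has no support in the labels, and a control and an ultrasound library that share a number had deviations with r of -0.04, 0.05 and 0.06. Under a replicate block, 0 genes passed in any of the 3 counts (3249 genes at an unadjusted p under 0.05). Depth does not limit the class II genes, which had 802 reads or more in each library.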
